A study of Rattus norvegicus with 30 samples.

Results

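Caspases are cysteine proteases that cut their substrates after aspartate. Inflammatory caspases (Casp1, Casp4, Casp12) sit downstream of the innate immune sensors: Casp1 is activated on inflammasomes and matures interleukin-1β and interleukin-18, and Casp4 of the rat binds bacterial lipopolysaccharide in the cytosol. Apoptotic caspases act as initiators (Casp8 at death receptors, Casp9 on the apoptosome, Casp2 on the PIDDosome) or as executioners that cut structural and nuclear proteins (Casp6). In the heart they are best known from ischaemia and heart failure, in which both apoptosis of myocytes and inflammation of the tissue have been described.

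The caspases examined here were 7 genes of the 24752 gene names in the deposited tables, 3 of them inflammatory and 4 apoptotic. They were chosen by name alone, as all rows that carried the symbol Casp1, Casp2, Casp4, Casp6, Casp8, Casp9 or Casp12. This gave 8 rows in each age's table (of 27408 rows at 8 weeks, 27383 at 21 weeks and 26553 at 78 weeks), because Casp6 had a pair of rows, and 9 probes on the array, because the Casp9 row was the mean of a pair of probes.

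Whole hearts came from untreated rats of the inbred Fischer strain (F344), bred at the NCTR. Each of the ages of 8, 21 and 78 weeks was represented by 5 female and 5 male rats. Total RNA of each rat was labelled with Cy3 and hybridised to 1 array of 8 Agilent slides. The question was whether caspase transcripts differ between the sexes at each age and whether they shift with age.

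Of 43379 non-control spots, between 17223 and 24342 were well above background per array. Male replicate 2 of 21 weeks had the fewest, followed by male replicates 5 (19180) and 4 (19650) of the same age. The 75th percentile of the processed signal was 39.9, 72.1 and 65.6 on these arrays. It was 103 and 105 on male replicates 1 and 3 of 21 weeks, and 82.7 to 123 on the females of that age. All 8 cardiomyocyte markers were above background on all 30 arrays. At 78 weeks, female replicate 2 carried the Y-linked Ddx3y at -0.79 and male replicate 3 at -5.36 (log2 signal over the array's 75th percentile), where arrays at the male level ran from -1.16 to -0.44 and arrays at the female level from -5.86 to -4.92. Eif2s3y, also Y-linked, showed the same swap, so comparisons that use 78 weeks are given with and without these 2 arrays. Females lay at positions 2 and 4 of each slide and males at 1 and 3, so sex and array position cannot be told apart. RNA of whole tissue was measured, so fewer cells of a type and less RNA per cell cannot be told apart either.

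The probes of the inflammatory caspases are shown because these genes are related in sequence and lie next to each other on chromosome 8, in the order Casp1, Casp4, Casp12 among the protein-coding genes of GRCr8. Starts of the Casp1 and Casp4 probes were 42.1 kb apart and those of Casp4 and Casp12 34.9 kb apart on the array's rn3 build. Capitals mark the longest run of bases that a probe shared with another of the caspase probes compared.
Casp1 (rn3, chr8:2032917-2032976): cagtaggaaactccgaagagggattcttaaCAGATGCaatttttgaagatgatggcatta
Casp4 (rn3, chr8:2075044-2075103): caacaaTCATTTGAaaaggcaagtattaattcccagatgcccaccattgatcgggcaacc
Casp12 (rn3, chr8:2109935-2110430): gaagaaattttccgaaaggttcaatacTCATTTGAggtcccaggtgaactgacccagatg

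The longest run shared by any pair of these probes was 8 of 60 bases, between Casp4 and Casp12, and the Casp1 probe shared 7 bases with that of Casp4. The Casp12 probe covered 496 bases of genome with its 60 bases and so crossed an intron, whereas the Casp1 and Casp4 probes each mapped to 60 continuous bases. Whether these bases are coding or untranslated was not given in the sources used here. All 3 probes were well above background on all 30 arrays.

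RefSeq's promoter table (GRCr8) held 5 of the 7 genes, with Casp4 and Casp8 missing. The 250 bases before the start of Casp1 and of Casp12 are shown because these genes were both lower in females at 21 weeks, below. Capitals mark matches on either strand to the interferon-stimulated response element, written as GAAA, any 2 bases and GAAA again, or to TTCNNNGAA, the core bound by STAT factors.
Casp1 (GRCr8, chr8:10872580-10872829, plus strand): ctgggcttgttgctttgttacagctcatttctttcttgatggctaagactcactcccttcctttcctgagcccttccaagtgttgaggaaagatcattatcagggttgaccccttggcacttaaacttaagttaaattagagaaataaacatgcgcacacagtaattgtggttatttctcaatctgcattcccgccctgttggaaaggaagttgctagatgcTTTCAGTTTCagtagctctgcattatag
Casp12 (GRCr8, chr8:10926938-10927187, plus strand): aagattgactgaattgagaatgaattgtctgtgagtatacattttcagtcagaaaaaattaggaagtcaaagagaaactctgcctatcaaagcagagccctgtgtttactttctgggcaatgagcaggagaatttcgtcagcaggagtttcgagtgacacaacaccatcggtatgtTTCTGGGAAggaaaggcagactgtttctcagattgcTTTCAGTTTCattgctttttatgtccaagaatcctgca

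The interferon element was present once in each of the Casp1 and Casp12 windows and in 3.41% of all 33469 promoters of the same length. TTCNNNGAA was present in the Casp12 window alone of the 5 and in 7.67% of all promoters. TATAAA was in none of the 5 windows and in 12.9% of all promoters. The matches did not overlap, and none of these motifs was found in the windows of Casp2, Casp6 and Casp9. A match describes letters only.

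In young rats of 8 weeks, the inflammatory Casp4 was the only 1 of the 7 caspases whose values did not overlap between the sexes. Its log2 values (signal over the array's 75th percentile, as deposited) were -0.55, -0.54, -0.50, -0.44 and -0.37 in females and -0.30, -0.27, -0.26, -0.24 and -0.17 in males. Every male lay above every female, a pattern held by 0.85% of all rows at this age. Casp4 was 1.17-fold higher in males (female minus male -0.23, SE 0.061, 95% interval -0.37 to -0.09). An exact two-sided permutation test gave p = 0.00794, the smallest that 5 against 5 can give, while the limma adjusted p over all rows was 0.501. The difference held its sign on all 3 slides, at -0.24, -0.17 and -0.33.

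Casp1 and Casp12 did not separate the sexes at 8 weeks. Casp1 values ran from -0.36 to -0.12 in females and from -0.26 to -0.05 in males, with a difference of -0.11 (95% interval -0.26 to 0.05). Casp12 values ran from -1.08 to -0.66 and from -0.93 to -0.58, with a difference of -0.17 (95% interval -0.40 to 0.07). Both groups overlapped for both genes.

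Among the apoptotic caspases at 8 weeks, Casp6, an executioner that cuts lamins, came closest to a separation. Its brighter probe read -1.06, -1.06, -1.03, -1.0 and -0.97 in females and -0.99, -0.95, -0.91, -0.83 and -0.79 in males, so 1 female overlapped 1 male. The difference was -0.13 (SE 0.062, exact permutation p = 0.016, limma adjusted p = 0.892). Casp2 was close to level between the sexes, with females from 2.47 to 2.56 and males from 2.51 to 2.57. Its difference of -0.02 had a 95% interval of -0.14 to 0.10. Casp8 and Casp9 were dim and their intervals were wide, at -0.55 to 0.16 and -0.64 to 0.36.

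No caspase row passed an adjusted p of 0.05 by limma at 8 weeks, where 0.102% of all rows did, and 1 of the 7 genes (Casp4) had an unadjusted p under 0.05, against 5.74% of all rows and 3.52% higher in males. Mean levels of all 7 genes were higher in males, against 51.1% of rows. The median female minus male difference was -0.17 over the 3 inflammatory and -0.13 over the 4 apoptotic caspases.

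**Figure D1:**
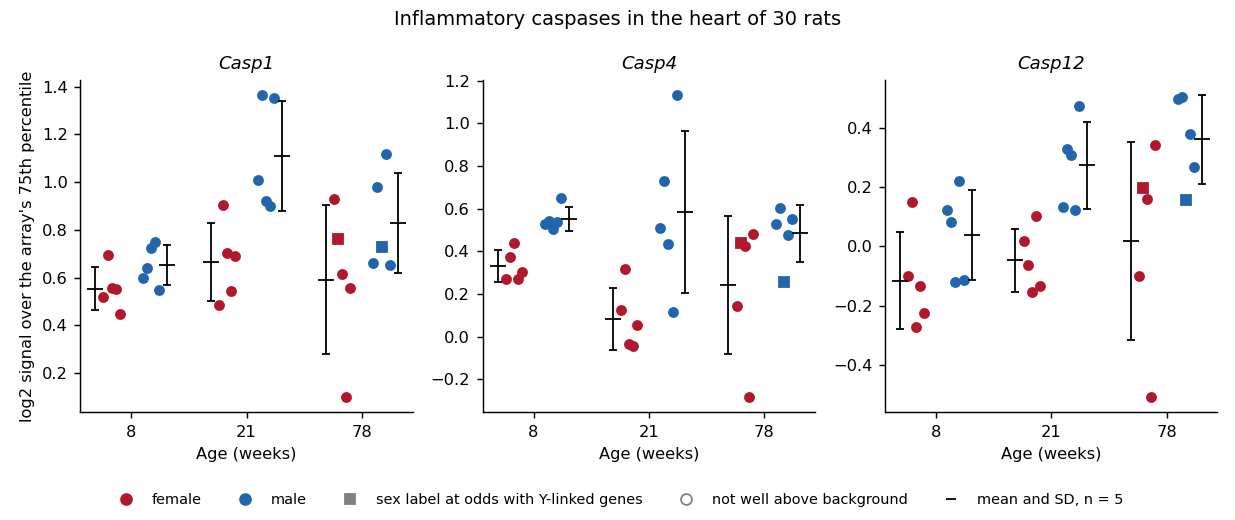
Levels of Casp1, Casp4 and Casp12 on each of 30 arrays, as log2 signal over the array's 75th percentile (y axis) against age in weeks (x axis), with females in red, males in blue, squares for the 2 arrays whose Y-linked genes go against the labelled sex, and bars for the mean and SD of 5 rats. Values are those of the scanner files, scaled over all probes. All 5 males lie above all 5 females for Casp12 at 21 weeks and for Casp4 at 8 weeks. For Casp1 at 21 weeks the lowest male (0.902) lies just below the highest female (0.906) on this scale.

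In adult rats of 21 weeks, all 3 inflammatory caspases were lower in females by mean. Casp1 read -0.36, -0.27, -0.15, -0.14 and 0.08 in females and 0.10, 0.12, 0.20, 0.49 and 0.55 in males. As deposited, the ranges were adjacent but did not overlap, as in 2.12% of all rows with males above. In the scanner files scaled over all probes they overlapped, with the highest female at 0.906 and the lowest male at 0.902. Casp1 was 1.38-fold higher in males (difference -0.46, SE 0.143, exact permutation p = 0.00794, limma adjusted p = 0.274).

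Casp12, which in rodents lies at the endoplasmic reticulum and is grouped with the inflammatory caspases by sequence, also separated the sexes. Females read -1.0, -0.98, -0.89, -0.83 and -0.71, and males -0.67, -0.67, -0.50, -0.49 and -0.39. Every male again lay above every female. The difference was -0.34, or 1.26-fold (SE 0.118, exact permutation p = 0.00794, limma adjusted p = 0.280).

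Among the 3 inflammatory caspases, Casp4 had the widest spread in males. Females read -0.88, -0.86, -0.79, -0.72 and -0.52, and males -0.68, -0.37, -0.30, -0.09 and 0.27. One male lay below the highest female, and the other 4 lay above all females. The difference was -0.52, or 1.43-fold (SE 0.178, exact permutation p = 0.016, limma adjusted p = 0.278). The male at 0.27 was replicate 5 (scanner files), and without it the difference was -0.39.

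Each of these differences was negative on all 3 slides that held 21-week arrays. Casp1 gave -0.51, -0.32 and -0.64, Casp12 gave -0.27, -0.27 and -0.59, and Casp4 gave -0.42, -0.34 and -1.06. The whole 21-week table leaned the same way, with a median row difference of -0.14 and 63.2% of rows higher in males by mean. Relative to that median, Casp1 was at -0.33, Casp4 at -0.38 and Casp12 at -0.20. With the normexp background correction the median row was at -0.38, and relative to it Casp1 was at 0.09, Casp4 at -0.01 and Casp12 at 0.12, so the position of Casp1 and Casp12 against the median row changed sign. With the raw median signal Casp12 also stood at 0.03 above the median row.

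Casp2, an initiator linked to DNA damage and to cell size control, differed in the opposite direction at 21 weeks. Females read 1.99, 2.15, 2.17, 2.18 and 2.21, and males 1.23, 1.71, 1.89, 1.99 and 2.03. All but 1 female lay above every male. The difference was 0.37, or 1.29-fold higher in females (SE 0.164, exact permutation p = 0.024, limma adjusted p = 0.311), and it was positive on all 3 slides (0.24, 0.23 and 0.93). Leaving out male replicate 5, the lowest array, gave 0.24.

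The remaining apoptotic caspases overlapped between the sexes at 21 weeks. Casp6 differed by -0.07 (95% interval -0.35 to 0.20). Casp8, above background on 2 arrays of each sex, differed by -0.27 (95% interval -0.71 to 0.18). The Casp9 row differed by -0.35 (95% interval -0.95 to 0.25). That row averages a probe above background with one that is not, and the brighter probe alone differed by -0.50 (95% interval -0.90 to -0.09, exact permutation p = 0.032, limma adjusted p = 0.36), with 4 of 5 males above every female.

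No caspase row passed an adjusted p of 0.05 by limma at 21 weeks, where 0.0511% of all rows did. At an unadjusted p under 0.05 there were 4 of the 7 genes (Casp1, Casp4 and Casp12 lower in females, Casp2 higher), against 15.9% of all rows, 9.67% higher in males and 6.19% higher in females. Every female lay above every male for none of the 7 genes and for 1.93% of rows.

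In old rats of 78 weeks the inflammatory caspases kept the same sign but none separated the sexes. Casp12 read -1.45, -1.02, -0.74, -0.70 and -0.55 in females and -0.74, -0.60, -0.54, -0.39 and -0.38 in males. Its difference was -0.36 (SE 0.170, exact permutation p = 0.056, limma adjusted p = 0.856). It was negative on all 3 slides.

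Casp1 differed by -0.25, with females from -0.84 to 0.01 and males from -0.23 to 0.19, and was negative on 2 of 3 slides. Casp4 differed by -0.26, with females from -1.22 to -0.41 and males from -0.64 to -0.28. Female replicate 4 gave the lowest value of all 3 inflammatory genes, and without it the differences shrank to -0.12 for Casp1, -0.12 for Casp4 and -0.22 for Casp12. Without female replicate 2 and male replicate 3 the differences were larger, at -0.32 for Casp1, -0.37 for Casp4 and -0.46 for Casp12. With 4 rats of each sex the exact permutation p was 0.0571 for both Casp4 and Casp12, where the smallest possible is 0.0286, and the limma adjusted p values were 0.643 and 0.592.

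Apoptotic caspases were close between the sexes at 78 weeks or too dim to read finely. Casp2 differed by -0.02 (95% interval -0.19 to 0.16), and by -0.01 without both arrays. Casp6 differed by 0.12 (95% interval -0.25 to 0.48), and by 0.21 without them. Casp8 was above background on 2 female and 5 male arrays and differed by -0.32 (95% interval -0.89 to 0.25), and by -0.35 without them. The Casp9 row differed by -0.14 (95% interval -0.66 to 0.38), and by -0.17 without them. Its brighter probe alone differed in the other direction, by 0.08 (95% interval -0.33 to 0.48), and by 0.14 without them.

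At 78 weeks no caspase row passed an adjusted p of 0.05 by limma, with or without both arrays, where 0% and 0.0339% of all rows passed. At an unadjusted p under 0.05 there were 0 of the 7 genes with all arrays (5.65% of rows, 3.68% higher in males and 1.98% in females), and Casp12 alone passed without both arrays (8.4% of rows, 5.57% higher in males). Means of 6 of the 7 genes were higher in males, against 50.8% of rows, and of 5 of the 7 with the brighter Casp9 probe alone. Without both arrays 51.9% of rows had higher means in males. Medians over the inflammatory genes were -0.46 at 21 and -0.26 at 78 weeks, against -0.17 and -0.08 over the apoptotic genes. Without both arrays the 78-week medians were -0.37 and -0.09.

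**Figure D2:**
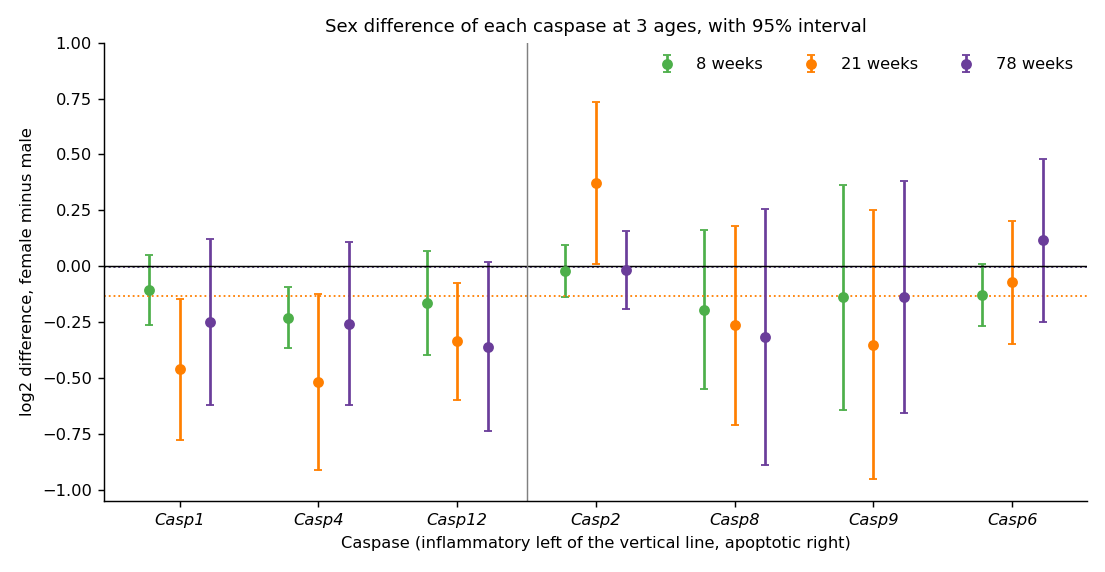
Female minus male log2 difference (y axis) of each caspase (x axis) at 8, 21 and 78 weeks, with 95% intervals of the limma fit, n = 5 of each sex. Dotted lines mark the median of all rows at each age, and intervals lie wholly below 0 for Casp4 at 8 weeks and for Casp1, Casp4 and Casp12 at 21 weeks, and wholly above 0 for Casp2 at 21 weeks.

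Most macrophage markers were also lower in females by mean, though their summed level at 8 weeks was not. Of 15 such genes, 11 had lower means in females at 8 weeks (median difference -0.04), 14 at 21 weeks (median -0.35) and 14 at 78 weeks (median -0.41), where 51.1%, 63.2% and 50.8% of all rows did. None passed the adjusted limma p, while 1, 4 and 10 of them were lower in females at an unadjusted p under 0.05, against 3.52%, 9.67% and 3.68% of rows. Without both arrays the 78-week median was -0.57, with 14 lower by mean and 11 unadjusted. Their summed log2 level ran from 7.0 to 7.18 in females and 6.71 to 7.27 in males at 8 weeks, from 7.15 to 7.67 and 7.41 to 8.16 at 21 weeks, and from 6.76 to 7.37 and 7.30 to 7.75 at 78 weeks. At 8 weeks the median summed level was 7.11 in females and 7.01 in males. No macrophage marker was below background on all arrays of an age. The 6 pan-leukocyte markers had median differences of -0.10, -0.41 and -0.37, the last being -0.55 without both arrays. Their median summed level at 8 weeks was 5.72 in females and 5.59 in males.

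Markers of other cell types also differed between the sexes by mean. At 8 weeks erythroid markers were lower in females in 4 of 5 genes (median -0.86, 4 unadjusted) and fibroblast markers in 7 of 7 (median -0.15). Lower too were T cell markers in 7 of 7 (median -0.22) and adipocyte markers in 4 of 4 (median -0.12). Of the T cell markers 2 were above background on no array of that age. Over all rows 51.1% were lower in females by mean and 3.52% unadjusted. Cardiomyocyte markers were higher in females in 7 of 8 genes (median 0.06) and endothelial markers in 6 of 7 (median 0.07). The summed erythroid level at 8 weeks ran from 4.92 to 5.63 in females and from 5.45 to 6.13 in males. At 21 weeks lower means in females were found for 4 of 4 adipocyte markers (median -0.53), 3 of 3 B cell markers (median -0.50), 5 of 5 erythroid markers (median -0.35) and 6 of 8 cardiomyocyte markers (median -0.31), in the age whose whole table leaned that way. Of these 3 B cell markers, 2 were above background on no array of 21 weeks. The summed adipocyte level at 21 weeks ran from 4.46 to 6.96 in females and from 5.23 to 6.44 in males, so the groups overlapped. Skeletal muscle markers were higher in females at that age in 6 of 8 genes (median 0.64) and fibroblast markers in 4 of 7 (median 0.08). The mean skeletal muscle level of an array ran from -0.85 to 2.57 in females, with a group mean of 0.17. In males it ran from -0.80 to 0.03, with a group mean of -0.47, so the groups overlapped and the female values spread widely. At 78 weeks fibroblast markers were lower in 7 of 7 genes (median -0.28, and -0.46 without both arrays). T cell markers were lower in 5 of 7 (median -0.41, and -0.49 without both arrays). Erythroid markers were lower in 3 of 5 (median -0.55, and -0.66 without both arrays). Cardiomyocyte markers were higher in 6 of 8 (median 0.08, and 0.13 without both arrays). Over all rows 50.8% were lower in females by mean, and 51.9% without both arrays. The part of these cells in the caspase differences was not tested.

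Genes around the inflammatory caspases were read from fixed lists. Of the inflammasome and interleukin-1 genes, 8 of 12 were lower in females by mean at 8 weeks, 10 of 11 at 21 weeks and 10 of 11 at 78 weeks, with median differences of -0.09, -0.33 and -0.43, beside the 51.1%, 63.2% and 50.8% of all rows with lower means in females. None passed the adjusted limma p at any age, and 0, 3 and 3 were lower in females unadjusted, against 3.52%, 9.67% and 3.68% of rows. Without both arrays the 78-week values were 11 of 11, a median of -0.56 and 5 unadjusted. Pycard, the adaptor that joins sensors to Casp1, differed by -0.47 at 21 weeks (limma adjusted p = 0.28). Il1rn, the interleukin-1 receptor antagonist, differed by -0.59 at 78 weeks (limma adjusted p = 0.86), and by -0.68 without both arrays (limma adjusted p = 0.52). Of 10 inducers of inflammatory genes, 8 were lower in females by mean at 21 weeks, where 63.2% of rows were, among them Tlr2 at -0.48 and Cd14 at -0.45. Cd14 is also on the list of macrophage markers. At 8 weeks 4 of the 10 inducers were lower in females and 6 higher. At 78 weeks 8 were lower, and 9 without both arrays.

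Lists around the apoptotic caspases also had no gene past the adjusted limma p between the sexes. Of the death receptor genes, 9 of 9 were lower in females by mean at 21 weeks (median -0.29), 3 of them unadjusted, among them Faslg, the ligand of Fas, at -0.31. Over all rows at that age 63.2% were lower by mean and 9.67% unadjusted, and the median row was at -0.14. Of these 9 genes, 5 were above background on all arrays of 21 weeks. At 8 weeks 9 of 10 death receptor genes were lower in females (51.1% of rows). At 78 weeks 7 of 10 were (50.8% of rows), and 9 of 10 without both arrays (51.9% of rows). Of the apoptosome and inhibitor genes, 7 of 10 were lower in females at 21 weeks (median -0.19) and 1 passed unadjusted, in the other direction. At 8 and 78 weeks 8 of 10 and 7 of 10 of them were higher in females.

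Levels at the 3 ages were compared on the scanner files, in which all 30 arrays were scaled in 1 way. Rats of different ages were handled in different batches, by the study's methods, so age and batch cannot be told apart. Only 1 slide held arrays of both 8 and 78 weeks, with 2 arrays of each age. A shared slide does not remove differences between RNA or labelling batches, so age and batch cannot be told apart there either. The median over all probes differed by 0.29 between 21 and 8 weeks, by 0.12 between 78 and 8 weeks and by -0.19 between 78 and 21 weeks.

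Casp2 had the clearest shift with age. Its level at 8 weeks was 3.32, 3.37, 3.30, 3.35 and 3.27 in females and 3.28, 3.34, 3.33, 3.38 and 3.34 in males. At 21 weeks females read 3.03, 2.82, 3.02, 3.02 and 3.00, and males 2.80, 2.53, 2.83, 2.68 and 2.09. At 78 weeks females read 2.79, 2.77, 2.83, 2.77 and 2.78, and males 2.68, 2.78, 2.82, 2.93 and 2.74. All 20 arrays of the later ages lay below all 10 of 8 weeks.

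Casp2 fell by 0.54 on the log2 scale, 1.45-fold, from 8 to 78 weeks (SE 0.068, limma adjusted p = 3.0e-06). A level on all 78-week arrays below all 8-week arrays was found for 1.11% of probes. The fall to 21 weeks was of the same size (-0.54, SE 0.068, limma adjusted p = 6.8e-07, 3.15% of probes without overlap), and 78 and 21 weeks differed by 0.00 (95% interval -0.14 to 0.14). Within the slide that held both ages, 78 minus 8 weeks was -0.57, with -0.49 in the female pair and -0.66 in the male pair. With the normexp background correction the difference from 8 to 78 weeks was -0.95, but the limma adjusted p rose to 0.079, and from 8 to 21 weeks it was -0.91 with an adjusted p of 0.073.

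Casp2 fell in both sexes. From 8 to 21 weeks the change was -0.34 in females (limma adjusted p = 0.033) and -0.74 in males (limma adjusted p = 4.9e-06), where 7.53% and 53.2% of probes passed. From 8 to 78 weeks it was -0.53 (limma adjusted p = 0.0022) and -0.54 (limma adjusted p = 0.0012), where 2.49% and 3.93% of probes passed. Without female replicate 2 and male replicate 3 of 78 weeks it was -0.53 (limma adjusted p = 0.0083) and -0.55 (limma adjusted p = 0.0040). The female minus male difference of Casp2 changed by 0.40 (SE 0.147) between these younger ages, with a limma adjusted p of 0.29.

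Casp6 also fell after 8 weeks. Its brighter probe ran from -0.25 to 0.01 at 8 weeks, from -0.68 to -0.26 at 21 weeks and from -0.83 to 0.10 at 78 weeks, with means of -0.15 (SD 0.093), -0.50 (SD 0.140) and -0.51 (SD 0.260) over 10 rats. Every 21-week array lay below every 8-week array. Casp6 fell by 0.35 from 8 to 78 weeks (SE 0.083, limma adjusted p = 0.0052) and by 0.34 to 21 weeks (SE 0.082, limma adjusted p = 0.0014). By sex, the change from 8 to 78 weeks was -0.47 in males (limma adjusted p = 0.021) and -0.23 in females (limma adjusted p = 0.46), and the change to 21 weeks was -0.37 in males (limma adjusted p = 0.012) and -0.31 in females (limma adjusted p = 0.12). Without the 2 arrays whose Y-linked genes go against the label, the 78-week changes were -0.54 (limma adjusted p = 0.014) and -0.20 (limma adjusted p = 0.63). The sex contrast of the 78-week change was 0.25 (SE 0.178, limma adjusted p = 1.0). Within the shared slide, 78 minus 8 weeks was -0.50. With the normexp correction Casp6 passed at neither age, at -0.20 (limma adjusted p = 0.079) and -0.16 (limma adjusted p = 0.148). The highest 78-week value, 0.10, was female replicate 4.

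**Figure D3:**
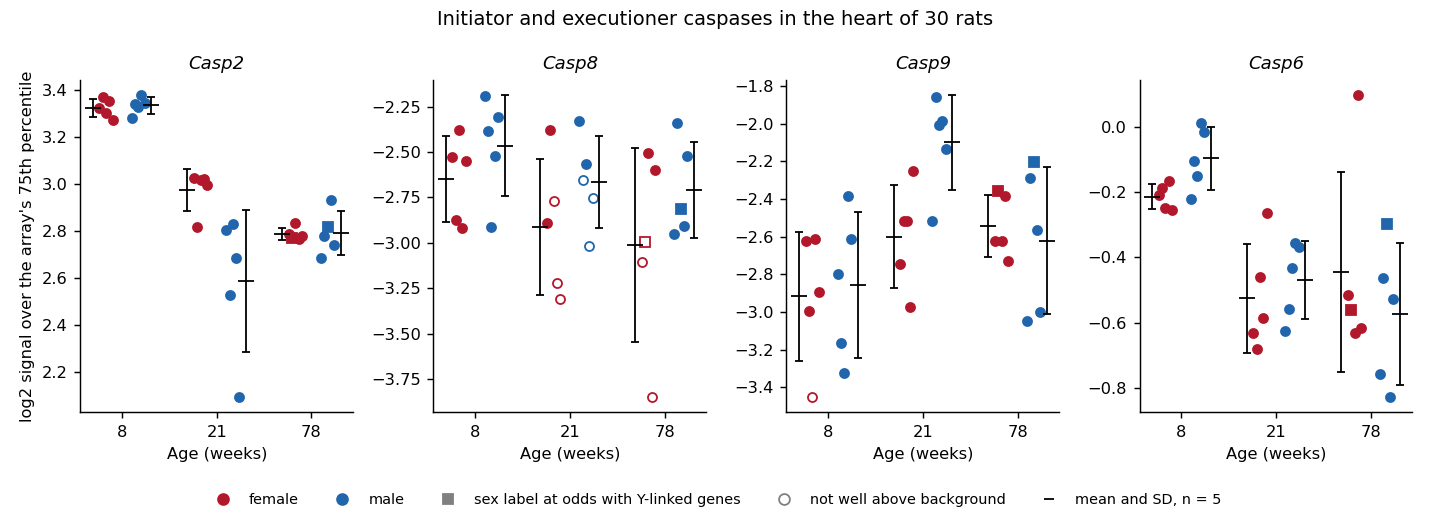
Levels of Casp2, Casp8, Casp9 and Casp6 on each of 30 arrays, as log2 signal over the array's 75th percentile (y axis) against age in weeks (x axis), with open symbols for arrays not well above background, squares for the 2 arrays whose Y-linked genes go against the labelled sex, and bars for the mean and SD of 5 rats. Casp2 at 21 and 78 weeks lies below all arrays of 8 weeks in both sexes.

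Casp9, which is activated by cytochrome c released from mitochondria, was higher at 21 weeks than at 8. The probe that was above background on 29 of 30 arrays ran from -3.45 to -2.38 at 8 weeks, from -2.97 to -1.86 at 21 weeks and from -3.05 to -2.20 at 78 weeks. The groups overlapped. Its difference from 8 to 21 weeks was 0.54 (SE 0.130, limma adjusted p = 0.0015), or 0.25 relative to the median probe, and it did not pass with the normexp correction (0.41, limma adjusted p = 0.10). By sex it was 0.76 in males (limma adjusted p = 0.0020) and 0.32 in females (limma adjusted p = 0.35), with a sex contrast of -0.44 (limma adjusted p = 0.39). From 21 to 78 weeks males differed by -0.51 (limma adjusted p = 0.041, where 34.1% of probes passed) and females by 0.07 (limma adjusted p = 1.0), with a sex contrast of 0.58 (limma adjusted p = 0.40). Without the 2 arrays whose Y-linked genes go against the label, the male difference was -0.62 (limma adjusted p = 0.022). From 8 to 78 weeks the difference was 0.32 over both sexes (limma adjusted p = 0.12), and within the shared slide -0.08. With the raw median signal it was 0.20 and passed (limma adjusted p = 0.038).

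Casp8, the initiator at death receptors, was above background on 10, 4 and 7 of 10 arrays at 8, 21 and 78 weeks. Its means were -2.56 (SD 0.262), -2.79 (SD 0.327) and -2.86 (SD 0.427). Neither difference from 8 weeks, -0.22 and -0.29, passed the adjusted limma p (0.176 and 0.174), and the sign was positive with the normexp correction and with the raw median signal. The other Casp6 probe was above background on 0 of 30 arrays and the other Casp9 probe on 1 of 30, and no fold is given for them.

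Among the inflammatory caspases, only Casp1 passed the test for a difference with age. Casp1 had means of 0.60 (SD 0.097), 0.89 (SD 0.301) and 0.71 (SD 0.279) at the 3 ages. It rose by 0.28 from 8 to 21 weeks (SE 0.088, limma adjusted p = 0.0095), which was -0.01 relative to the median probe, and by 0.45 in males (limma adjusted p = 0.0053) against 0.11 in females (limma adjusted p = 0.63). That sex contrast was -0.35 with a limma adjusted p of 0.34. The difference from 8 to 21 weeks was 0.08 with the normexp correction and 0.14 with the raw median signal, and passed with neither (limma adjusted p = 0.61 and 0.091).

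Casp12 had means of -0.04 (SD 0.170), 0.11 (SD 0.208) and 0.19 (SD 0.305). Its difference from 8 to 78 weeks was 0.22 (SE 0.086, limma adjusted p = 0.095), where the median probe differed by 0.12. Within the shared slide Casp12 differed by 0.37. Without both arrays whose Y-linked genes go against the label, the Casp12 difference was 0.22 (limma adjusted p = 0.15). Over 20 fits that each left out a single array, it ran from 0.19 to 0.29 (limma adjusted p from 0.0090 to 0.19). The largest difference and the smallest adjusted p came without female replicate 4 of 78 weeks, the lowest Casp12 array. With dim probes left out the adjusted p was 0.046. Casp4 differed by -0.08 from 8 to 78 weeks (95% interval -0.28 to 0.12) and by -0.11 to 21 weeks (95% interval -0.31 to 0.09).

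Between 78 and 8 weeks 2 of 9 caspase probes passed an adjusted p of 0.05, both lower at 78 weeks (Casp2 and Casp6), against 10.9% of all probes, 5.21% lower and 5.66% higher. Without the 2 arrays whose Y-linked genes go against the label, Casp2 (-0.54, limma adjusted p = 2.6e-05) and Casp6 (-0.37, limma adjusted p = 0.0072) again passed, and no other caspase probe did. Between 21 and 8 weeks 5 of 9 passed, against 57.3% of all probes, a share near the background, and the same number passed unadjusted, against 62.2%. Of these 5, only 4 were among the 7 probes above background on at least 15 arrays, and the other was a dim probe. Between 78 and 21 weeks none passed by limma, against 33% of all probes (19.4% lower at 78 weeks), and none had an unadjusted p under 0.05, against 43.3%. No caspase had a sex difference that changed between ages by limma (0.00244%, 0% and 0.00244% of probes did), and Casp2 alone had an unadjusted p under 0.05, for 21 against 8 weeks (16.5% of probes) and for 78 against 21 weeks (12.4% of probes). For 78 against 8 weeks 2.34% of probes did.

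**Figure D4:**
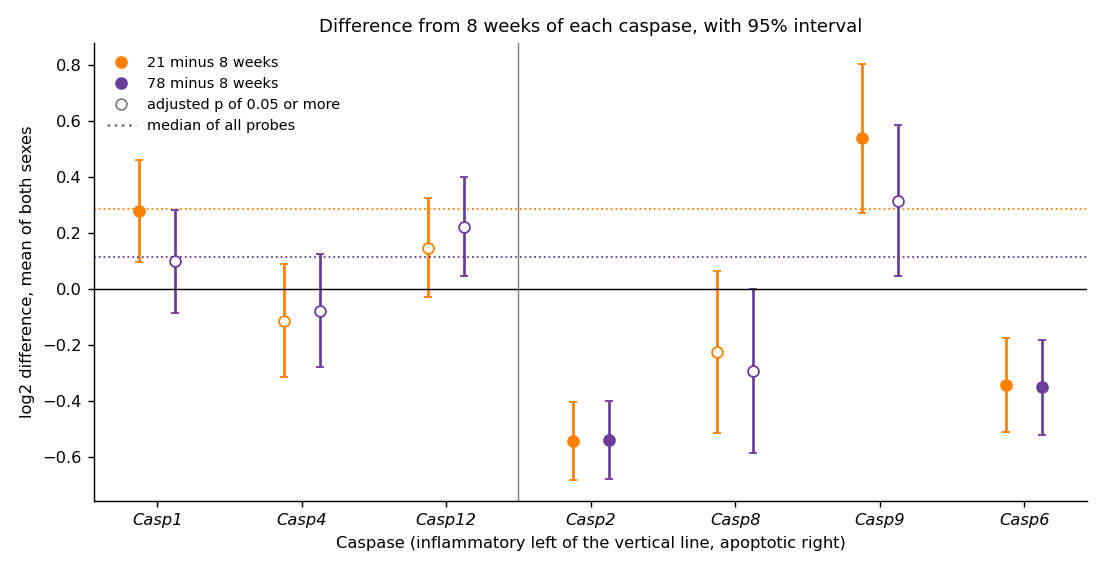
Log2 difference from 8 weeks (y axis), as the mean of both sexes, of each caspase's brightest probe (x axis) at 21 and 78 weeks, with 95% intervals of the limma fit over 30 arrays, filled where the adjusted p was under 0.05, and dotted lines for the median of all probes. Casp2 and Casp6 lie below 0 at both ages and are filled. Casp4 and Casp8 also lie below 0 at both ages but are open.

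Other genes of these pathways at 78 against 8 weeks were read beside a median probe difference of 0.12 and shares of 5.66% of probes called higher and 5.21% called lower. Of 10 apoptosome and inhibitor genes, the inhibitor of apoptosis Birc3 rose by 0.29 (adjusted p = 0.011) and its relative Birc2 fell by 0.38 (adjusted p = 0.0079). None of 11 death receptor genes passed by limma, adjusted or unadjusted. Of 9 caspase substrates, 1 fell, the lamin Lmnb1 (-1.25, limma adjusted p = 0.00074), above background on 6 of 20 arrays. Of 10 genes of endoplasmic reticulum stress, 1 fell (Pdia4, a folding enzyme, by 0.41).

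On the inflammatory side 1 of 12 inflammasome and interleukin-1 genes rose at 78 weeks, Mefv, which encodes the sensor pyrin (0.65, limma adjusted p = 0.0010). Of 15 macrophage markers 7 rose and none fell (median 0.25, against 5.66% and 5.21% of all probes), among them Cd163 by 0.90 and Mrc1 by 0.58, while the median of the 3 inflammatory caspases was 0.10. Without both arrays the counts of called genes in these lists at 78 against 8 weeks were the same, and each named gene passed again by limma. Pan-leukocyte markers did not rise as the macrophage markers did, with 4 of 6 lower by mean at 78 weeks (median -0.02). Of the 6, 1 was called higher and 1 lower, and without both arrays 0 and 1.

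Across the 30 arrays, each taken as its deviation from its group's mean, Casp1 and Casp4 varied together (r = 0.60, 0.56 without the 2 farthest arrays), as did Casp4 and Casp12 (r = 0.66, 0.49 without them). Casp1 and Casp12 were less alike (r = 0.46, 0.33 without them). Across the 2 kinds of caspase, Casp4 varied with Casp8 (r = 0.56, 0.56 without them), so varying together was not particular to the inflammatory genes. Casp4 varied against Casp2 (r = -0.59, -0.49 without them). All points share an array, so labelling and depth enter both sides, and these are descriptions.

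The genes whose deviations were most like each inflammatory caspase were sought over 8804 probes above background on all 30 arrays. For Casp4 they were Klrd1 (r = 0.83), a receptor of natural killer cells, Tyrobp (r = 0.82), the adaptor of myeloid and natural killer receptors, Ctla2a, Tmsb4x and Myoz1. For Casp12 they were Ptpre (r = 0.76), the natural killer receptors Klre1 (r = 0.75) and Klrb1a, the chemokine Ccl5 and the Fc receptor Fcgr3a, and their likeness rested in part on the arrays farthest out. Rank correlations of these 5 genes ran from 0.50 for Ccl5 to 0.60 for Klrb1a, and r without the 2 farthest arrays from 0.43 to 0.57 for the same pair. For Casp1 they were Mgmt (r = 0.86), a DNA repair enzyme, Zfp472 (r = 0.85), Cd83 (r = 0.82), a surface protein of activated dendritic cells, Gsto1 and Akip1. Rank correlations ran from 0.65 for Tmsb4x to 0.85 for Klrd1 among the Casp4 neighbours, and from 0.70 for Akip1 to 0.83 for Mgmt among those of Casp1. These likenesses were also lower without the 2 farthest arrays. There r ran from 0.64 for Tmsb4x to 0.79 for Klrd1, and from 0.70 for Akip1 to 0.79 for Mgmt.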

How the data were processed

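Arrays were Agilent rat whole-genome arrays with 1 dye. Scanner files held spot intensity values made by the authors with Agilent Feature Extraction, with background subtracted in the processed intensity, and flags for spots well above background. Deposited tables held, for each age separately, the processed signal divided by the array's 75th percentile by the authors, on a linear scale, without genes they called not expressed. These authors' signal values were taken to log2 here. Between 95.6% and 95.8% of table rows matched 1 probe or the mean of several within 0.002 on the log2 scale. The 21-week columns of males were matched to the group only, and replicate numbers there refer to scanner files.

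Sexes were compared within each table by limma 3.58.1 (R 4.3.3, lmFit and eBayes, two-sided) with Benjamini-Hochberg adjustment over all rows, and single rows also by exact permutation of the sex labels. Ages were compared on log2 of the processed intensity over the array's 75th percentile of all probes, in 1 limma fit of 30 arrays and 41012 probes with slide as a random block (consensus correlation -0.04). Each rat gave 1 array, and rats of a group are separate animals. The number of arrays limits precision. No caspase spot was marked as an outlier or saturated. All 7 genes are named, and each is told by its brightest row or probe. Genes of other lists are named from the 4 with the smallest p among rows above background, or those that passed; some genes of these lists are not reported here. Members and lists were chosen with earlier results of these data known. Alternatives were other normalizations and background corrections, filters on dim probes, other choices of row, replicate and slide blocks, the methods' t-test and leaving out arrays. Procedures were tested on simulated data with 200 changed features, of which 149, 121 and 137 were recovered between the sexes at 8, 21 and 78 weeks and 181 between 78 and 8 weeks. Each simulated sex difference was larger than any caspase sex difference reported here. These shares therefore do not tell how often differences of the caspases' size would be found.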

Additional observations from a re-analysis of the deposited data

Results flagged for a closer look

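Of 42 groups of 5 values tested for a value far from the other 4, 2 held one, and chance gives about 1 in 20. Casp2 in females of 21 weeks had its lowest value in replicate 2, at 1.99, with the others between 2.15 and 2.21. Casp6 in females of 78 weeks had its highest value in replicate 4, at -0.84, with the others between -1.53 and -1.43. The latter array also gave the lowest Casp1, Casp4 and Casp12 values of the group.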

How the results depend on the processing

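Leaving out 1 array at a time gave 0 to 0 called caspase rows between the sexes at each age, 0 to 0 probes between 78 and 21 weeks and for changed sex differences, 4 to 5 between 21 and 8 weeks and 2 to 3 between 78 and 8 weeks. With normexp, the count was 0 for 78 against 8 weeks (2 as reported) and 0 for 21 against 8 weeks (5 as reported). Quantile normalization and the raw median signal each gave 1 probe (Casp9) between 78 and 21 weeks. For 78 against 8 weeks the count was 3 with the raw median signal (Casp9 added) and with dim probes left out (Casp12 added). Of 349 values of single genes under other settings, 16 changed sign. With normexp these were Casp9 between the sexes at 8 weeks (0.039) and 78 weeks (0.18), Casp8 at 78 weeks (0.20), Casp1 at 78 against 8 weeks (-0.0096), Casp8 at 78 and 21 against 8 weeks (0.30 and 0.29), and Casp2 and Casp8 at 78 against 21 weeks (-0.031 and 0.0093). With the raw median signal they were Casp2 and Casp9 between the sexes at 8 weeks (0.031 and 0.0063), Casp8 at 78 and 21 against 8 weeks (0.0061 and 0.11) and Casp6 at 78 against 21 weeks (0.00032). With the mean over the rows of a name Casp6 between the sexes at 78 weeks was -0.069, and within the shared slide Casp9 at 78 against 8 weeks was -0.085. With the brighter Casp9 probe alone, a setting chosen after seeing the data, Casp9 between the sexes at 78 weeks was 0.077. Causes were not tested.

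Leaving out 1 array changed the sign of 21 of 630 values, in Casp2 (-0.054 to 0.035), Casp4 (-0.027 to 0.10), Casp6 (-0.075 to 0.023) and Casp8 (-0.13 to 0.038) at 78 against 21 weeks, and in Casp6 (-0.013 to 0.18) and Casp2 (-0.045 to 0.0086) between the sexes at 78 weeks.

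Replicate numbers were not taken to pair the rats: same-numbered females and males correlated at -0.08 to 0.14, -0.13 to 0.31 and 0.06 to 0.22 at the 3 ages, and 1, 2 and 4 of 5 females were most like the male of their own number. With the replicate block 0 caspase rows were called between the sexes at each age, and 2, 5, 0 and 0 probes in the age comparisons. Dim probes of Casp8 and Casp9 limit their differences.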
